A study of Mus musculus with 6 samples.

Results

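The enzymes of de novo purine and pyrimidine synthesis were followed in mouse embryonic fibroblasts (MEFs) undergoing reprogramming with or without AKT activation. The set consisted of 10 genes chosen by symbol, namely *Cad*, *Dhodh*, *Umps*, *Ppat*, *Gart*, *Pfas*, *Paics*, *Adsl*, *Atic* and *Impdh2*. All 10 were found among the 54331 genes of the table, and all 10 were among the 15382 genes tested, those that averaged 1 TPM or more. TPM is a transcript level corrected for transcript length and scaled to the same total in each library, so levels of different genes can be set side by side. The RNA came from 6 wells at 10 days postinfection (dpi), 3 in the OSKA − 4OHT group and 3 in the OSKA + 4OHT group. All wells held MEFs pooled from male E13.5 embryos that carried an Oct4-EGFP transgene on a mixed C57BL/6, DBA/2 and ICR background, transduced by retrovirus with Oct4, Sox2, Klf4 and AKT-MER. AKT-MER is myristoylated AKT fused to a modified estrogen receptor and is switched on by 4-hydroxytamoxifen (4OHT), which was given from 3 dpi, whereas the other wells received the vehicle ethanol. Every library carried AKT-MER, so an action of 4OHT of its own and AKT activation cannot be told apart here. The infected MEFs were replated into the wells at 3 dpi and separate infections are not stated, so p-values measure the spread between wells, which may be technical. Where a group's wells are given one by one, they stand in the order of replicates 1, 2 and 3.

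Purines are built directly on phosphoribosyl pyrophosphate (PRPP) up to inosine monophosphate (IMP), from which AMP and GMP are made. The pyrimidine ring is closed first, oxidised in the mitochondrion and then joined to PRPP to give UMP. Growing cells use both routes to supply RNA and DNA synthesis, and AKT and mTORC1 signaling are known to act on them, in part by phosphorylating enzymes, which RNA levels do not show. MYC and ATF4 are known transcriptional regulators of genes of these routes.

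The values of each library add up to 1000000 TPM and keep no sequencing depth. The OSKA − 4OHT libraries listed 15814 to 17692 genes above 0 and the OSKA + 4OHT libraries 17578 to 18230. Of 10 fibroblast markers, all were tested, and their summed level was 6777 to 8610 TPM in the OSKA − 4OHT wells and 5037 to 6490 TPM in the OSKA + 4OHT wells, so fibroblast RNA was abundant in both. Of the 10, 8 had a negative log2 fold change (median -0.40) and 7 had every OSKA + 4OHT well below every OSKA − 4OHT well, beside 10% of all tested genes. By the test, *Col1a2* and *Pdgfrb* were called lower and *Col3a1* was called higher (433 ± 12.2 to 1023 ± 140.1 TPM, SD, n = 3 each; adjusted p = 0.00582 by limma-trend), while the other 7 were not called. In the same order, the summed level of 8 pluripotency markers was 3.77 to 5.59 and 47.7 to 60.1 TPM, that of 5 epithelial markers 30.9 to 69.4 and 145 to 157 TPM, and that of 5 macrophage markers 116 to 131 and 71.7 to 82.5 TPM. The difference between the macrophage sums rested on *Lyz2*, the only one of the 5 called (lower). Without it the sums overlapped at 23.4 to 36.4 and 21.7 to 31.6 TPM. Of the 5 macrophage markers, 1 had a positive log2 fold change (median -0.73). For 2 of them, *Lyz2* and *Csf1r*, every OSKA + 4OHT well lay below every OSKA − 4OHT well. The pluripotency markers *Dppa5a*, *Utf1* and *Dppa4* were listed at 0 in all OSKA − 4OHT wells, and the endothelial markers summed to 6.87 to 14.5 TPM over all wells. The part of these differences in the levels described next was not tested, and in bulk RNA fewer cells of a type and less RNA per cell cannot be told apart.

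No enzyme gene of the set passed the test in either direction. By limma-trend on log2(TPM + 0.5) with Benjamini-Hochberg adjustment over all tested genes, 0 of the 10 were called higher and 0 were called lower at an adjusted p-value under 0.05. Among all tested genes 3.52% were called higher and 1.97% lower, so a count of 0 in 10 genes is near the background. With an absolute log2 fold change above 1 asked for as well, 0 of the 10 were called in either direction, and the background was 2.87% higher and 1.37% lower. At an unadjusted p-value under 0.05, 2 of the 10 were lower, *Paics* and *Cad*, against 7.18% of all tested genes, and 0 were higher, against 14.1%. The median log2 fold change of the 10 genes was -0.29, beside 0.14 over all tested genes. A positive log2 fold change was found for 4 of the 10, beside 59.3% of all tested genes. Without OSKA − 4OHT replicate 2 the median of the 10 was 0.043, beside 0.16 for all tested genes, so the side of 0 on which it lay rested on that well. Every OSKA + 4OHT well lay below every OSKA − 4OHT well for *Paics* and *Ppat* and above for *Umps*, while 10% of all tested genes were separated downwards in this way and 18.1% upwards. With 3 wells against 3, the smallest 2-sided p-value of an exact permutation test is 0.1.

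**Figure D1:**
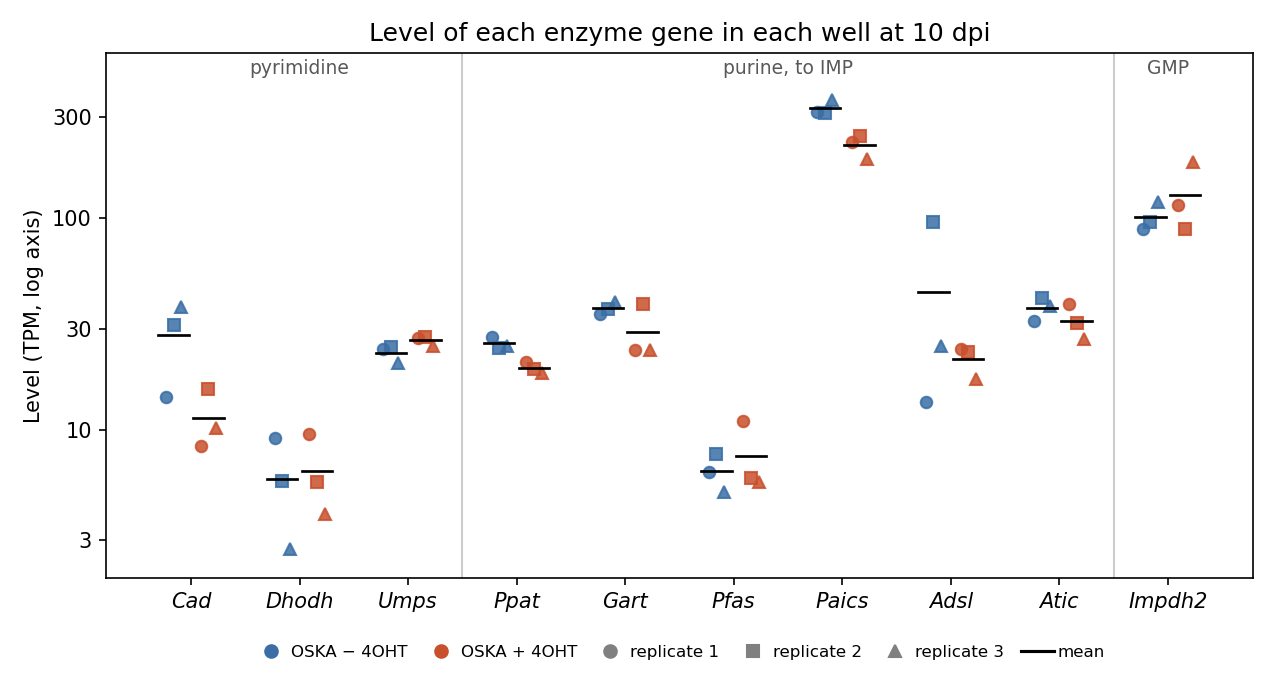
Level of the 10 enzyme genes in TPM on a log axis, with a point for each well (3 per group; shape gives the replicate number) and a line at the group mean. The OSKA + 4OHT wells of *Paics* (189 to 243 TPM) lie below the OSKA − 4OHT wells (313 to 359.6 TPM), and OSKA − 4OHT replicate 2 of *Adsl* (95.7 TPM) stands above the other wells of that gene.

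*Cad* encodes the large protein that carries out the opening reactions of pyrimidine synthesis, from glutamine to dihydroorotate. The gene lies on the plus strand of GRCm38 at chr5:31054780-31078479. *Cad* had 14.3, 31.0 and 38.1 TPM across the OSKA − 4OHT wells and 8.33, 15.6 and 10.1 TPM across the OSKA + 4OHT wells. OSKA − 4OHT replicate 1 fell within the range of the OSKA + 4OHT wells, and so the groups overlapped. The mean was 27.8 ± 12.2 TPM without and 11.3 ± 3.76 TPM with 4OHT (SD, n = 3 each), the latter 0.407 of the former. This was the widest difference of the set, at -1.19 on the log2 scale (standard error 0.418, 95% confidence interval -2.20 to -0.19, adjusted p = 0.170 by limma-trend). It did not pass the correction over all genes, and its adjusted p-value was between 0.0686 and 0.383 in the 6 fits that left out 1 well.

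*Dhodh*, the mitochondrial enzyme that oxidises dihydroorotate to orotate, was the gene with the lowest mean level in both groups (chr8:109591343-109608673, minus strand). It had 9.13, 5.70 and 2.74 TPM across the OSKA − 4OHT wells and 9.49, 5.66 and 3.99 TPM across the OSKA + 4OHT wells. The groups covered almost the same range, and the log2 fold change of 0.17 had a confidence interval from -1.02 to 1.36 (adjusted p = 0.877 by limma-trend), which leaves room for a change of more than 2-fold in either direction. Its sign turned after quantile normalization and when OSKA − 4OHT replicate 3 or OSKA + 4OHT replicate 1 was left out. *Umps* (chr16:33954782-33967038, minus strand) converts orotate to UMP. It had 23.9, 24.6 and 20.5 TPM across the OSKA − 4OHT wells and 27.2, 27.3 and 24.8 TPM across the OSKA + 4OHT wells. Its groups did not overlap, by a margin of 24.8 over 24.6 TPM, and the log2 fold change was 0.20 (confidence interval -0.18 to 0.58, adjusted p = 0.542 by limma-trend). The antisense gene *Gm15829*, which shares 215 bases with a *Umps* transcript, did not exceed 0.982 TPM in any well. The 3 pyrimidine genes therefore did not share a sign, and none was called.

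*Ppat* and *Paics* are neighbours on chromosome 5 of GRCm38 that start head to head. *Ppat* lies on the minus strand from 76913249 to 76951578 and *Paics* on the plus strand from 76951307 to 76967509, and their annotated exons overlap by 272 bases. The library kit was stranded, but whether the quantification used the strand is not given in the sources used here, so reads from these 272 bases may have been shared between the genes. The following stretches of RefSeq's GRCm38.p6 promoter windows, 250 bases before to 50 bases after the start, are shown because they hold the motifs searched for in the enzyme genes. Each is 30 bases long, on the strand of its gene, with the motif in capitals.
Paics, chr5:76951087-76951116, plus strand: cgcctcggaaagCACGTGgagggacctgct
Ppat, chr5:76951771-76951800, minus strand: gagcagaccgcGCGGGAAAaaagggcagtg
Ppat, chr5:76951718-76951747, minus strand: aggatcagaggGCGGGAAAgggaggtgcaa
Atic, chr1:71557137-71557166, plus strand: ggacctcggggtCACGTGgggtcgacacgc
Impdh2, chr9:108560314-108560343, plus strand: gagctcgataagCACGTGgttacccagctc
CACGTG is the E-box that MYC and related factors can bind, and GCGGGAAA is the reverse complement of TTTCCCGC, an E2F-type motif. With position -1 as the last base before RefSeq's start, the E-box began at position -203 in *Paics*, at -7 in *Atic* and at -110 in *Impdh2*, and the E2F-type motifs began at -211 and -158 in *Ppat*. The GENCODE starts differ for some of these genes, so that the E-box of *Impdh2* begins 40 bases inside the gene as GENCODE places it and that of *Atic* spans the GENCODE start at 71557150. By GENCODE the E-box of *Paics* lies in an exon of *Ppat* (chr5:76950957-76951165), and both motifs of *Ppat* lie in an exon of *Paics* (chr5:76951307-76951835). A window was found for 8 of the 10 genes, not for *Dhodh* and *Pfas*. On either strand, CACGTG was present in 3 of the 8 and in 7.15% of all 32851 windows, and TTTCCCGC or TTTGGCGC in 1 of the 8 and in 1.565%. The 8 are counted as genes with a match in any of their windows, whereas the percentages are of single windows. The ATF4-type motif TGATGNAA was in 0 of the 8 and 3.97% of all windows, and the NRF1 motif in 0 of the 8 and 0.971%. No match says only that these letters are not in the window. None of the stretches shown holds a match of another searched motif that overlaps the one in capitals. A match is a description of the letters and not a bound site, and the genes with an E-box differed in the sign of their log2 fold change.

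*Ppat* encodes the amidotransferase that commits PRPP to purine synthesis. It had 27.5, 24.2 and 24.9 TPM across the OSKA − 4OHT wells and 20.9, 19.4 and 18.5 TPM across the OSKA + 4OHT wells. The wells were close within each group and the groups did not overlap, with means of 25.6 ± 1.72 and 19.6 ± 1.23 TPM (SD, n = 3 each). The log2 fold change was -0.37 (confidence interval -0.75 to 0.0039) and the adjusted p-value 0.239 by limma-trend.

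*Paics*, which carboxylates the first closed purine ring and then adds aspartate to it, was the most abundant gene of the set. It had 317, 313 and 359.6 TPM across the OSKA − 4OHT wells and 229, 243 and 189 TPM across the OSKA + 4OHT wells. The lowest OSKA − 4OHT well was thus well above the highest OSKA + 4OHT well. The means were 329.8 ± 25.9 and 220.1 ± 28.2 TPM (SD, n = 3 each), so the OSKA + 4OHT level was 0.667 of the other. On the log2 scale the difference was -0.59 (standard error 0.137, confidence interval -0.92 to -0.26). The unadjusted p was 0.00435 and the adjusted p 0.0633 by limma-trend, just outside the threshold. This call depended on the scaling. The adjusted p-value by limma-trend was 0.0182 with a log2 fold change of -0.72 after TMM scaling (trimmed mean of log ratios). It was 0.0480 with -0.57 after quantile normalization, whereas in the 6 fits that left out 1 well it was between 0.109 and 0.159. No other alternative brought it under 0.05, and with the replicate block it was 0.183. *Paics* was lower in the OSKA + 4OHT group in all 17 fits, the first one included.

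*Gart* (chr16:91621186-91646952, minus strand), a protein with several early activities of the purine route, had 35.2, 37.1 and 40.0 TPM across the OSKA − 4OHT wells. In OSKA + 4OHT replicates 1 to 3 it had 23.9, 39.3 and 23.7 TPM, so 2 wells were below the OSKA − 4OHT range and 1 was inside it. The log2 fold change was -0.40 (confidence interval -0.97 to 0.16, adjusted p = 0.385 by limma-trend). *Pfas* (chr11:68985697-69008460, minus strand), which takes nitrogen from glutamine for the formylglycinamide intermediate, had 6.33, 7.65 and 5.08 TPM across the OSKA − 4OHT wells and 10.9, 5.90 and 5.69 TPM across the OSKA + 4OHT wells. Its log2 fold change was 0.18 (confidence interval -0.60 to 0.97, adjusted p = 0.789 by limma-trend), and without OSKA + 4OHT replicate 1, the only well above the OSKA − 4OHT range, it was -0.11.

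*Adsl* (chr15:80948490-80970946, plus strand) is a lyase that acts on the way to IMP and again between IMP and AMP. It had 13.6, 95.7 and 24.8 TPM across the OSKA − 4OHT wells and 24.1, 23.1 and 17.4 TPM across the OSKA + 4OHT wells. A single well, OSKA − 4OHT replicate 2, set the difference between the means of 44.7 ± 44.5 and 21.6 ± 3.62 TPM (SD, n = 3 each). The log2 fold change was -0.57 (confidence interval -2.19 to 1.05, adjusted p = 0.665 by limma-trend) and became 0.21 without that well. The annotation lists 12 *Adsl* transcripts of 252 to 3711 bases, and the deposited gene level does not show which of them carried the reads of that well. *Atic* (chr1:71557150-71579631, plus strand), which completes IMP, had 32.5, 41.8 and 38.3 TPM across the OSKA − 4OHT wells and 39.3, 32.0 and 26.8 TPM across the OSKA + 4OHT wells. Its groups overlapped, with a log2 fold change of -0.21 (confidence interval -0.69 to 0.28, adjusted p = 0.598 by limma-trend). In the 6 fits that left out 1 well, this log2 fold change was between -0.35 and -0.073. Of the 6 genes from PRPP to IMP, 5 thus had a negative log2 fold change and none was called, while 59.3% of all tested genes were above 0. The count of negative genes was 4 once OSKA − 4OHT replicate 2 was left out and 6 once OSKA + 4OHT replicate 1 was left out.

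*Impdh2* (chr9:108560286-108565584, plus strand) turns IMP towards GMP and was the next most abundant gene after *Paics*. It had 88.8, 95.5 and 119 TPM across the OSKA − 4OHT wells and 114, 88.4 and 183 TPM across the OSKA + 4OHT wells. The OSKA + 4OHT wells spanned the OSKA − 4OHT range on both sides, and the log2 fold change of 0.29 had a confidence interval from -0.39 to 0.97 (adjusted p = 0.601 by limma-trend). This log2 fold change was 0.0027 without OSKA + 4OHT replicate 3 and 0.52 without OSKA + 4OHT replicate 2. The processed pseudogene *Impdh2-ps* is 99.7% identical to the *Impdh2* transcript over 1545 of its 1858 bases, so the 2 levels are uncertain. *Impdh2-ps* was listed at 17.0 TPM in OSKA − 4OHT replicate 3 and at 0 in the other wells. With both summed, the log2 fold change was 0.22 (adjusted p = 0.710 by limma-trend). The paralog *Impdh1* had 21.0, 15.6 and 17.3 TPM across the OSKA − 4OHT wells and 20.8, 21.8 and 20.1 TPM across the OSKA + 4OHT wells. It was not called either (log2 fold change 0.22, adjusted p = 0.542 by limma-trend), and *Impdh2* was the more abundant of the pair in every well.

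**Figure D2:**
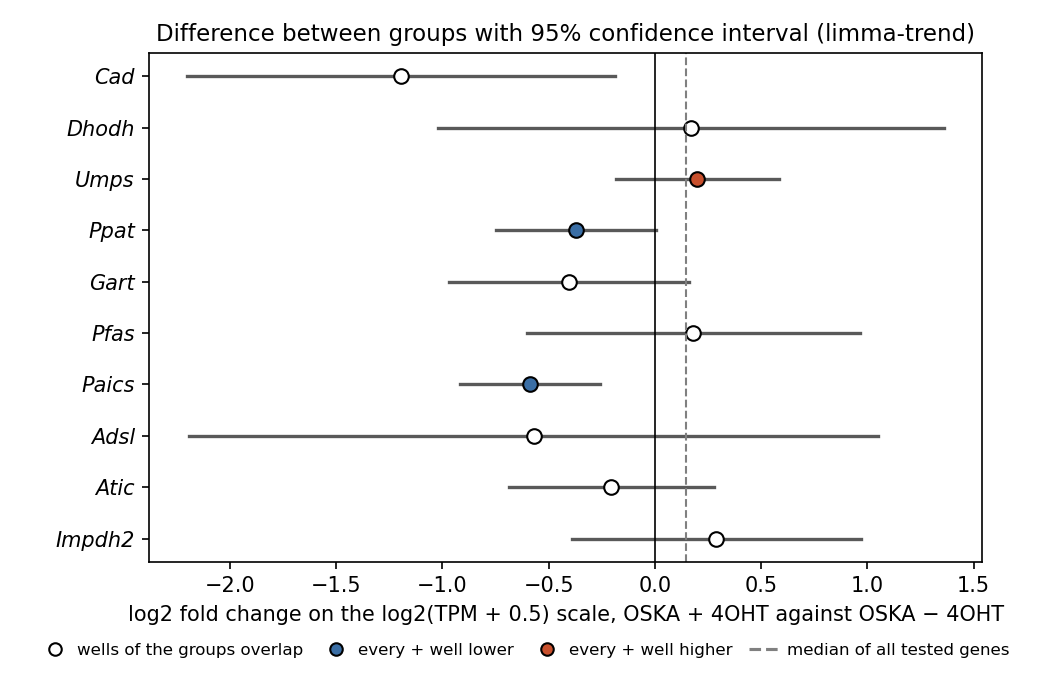
Log2 fold change of each enzyme gene between the groups (point) with its 95% confidence interval (line) from limma-trend, 3 wells per group, and the median of all tested genes as a dashed line at 0.14. The intervals of *Paics* and *Cad* lie below 0 before correction over all genes, and the widest interval is that of *Adsl* (-2.19 to 1.05).

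The enzymes differed far more in level from each other than between the groups. In the OSKA − 4OHT group *Paics* (329.8 TPM) was followed by *Impdh2* (101 TPM), *Adsl* (44.7 TPM), *Atic* (37.5 TPM), *Gart* (37.4 TPM), *Cad* (27.8 TPM), *Ppat* (25.6 TPM), *Umps* (23.0 TPM), *Pfas* (6.35 TPM) and *Dhodh* (5.86 TPM). In this order only *Paics* and *Impdh2*, and *Umps* and *Pfas*, were neighbours whose wells did not overlap. In the OSKA + 4OHT group *Paics* and *Impdh2* again came first and *Pfas* and *Dhodh* last, and the wells of *Paics* (189 to 243 TPM) and *Impdh2* (88.4 to 183 TPM) lay closer together. The coefficient of variation between OSKA − 4OHT wells ranged from 6.39% for *Gart* to 99.6% for *Adsl*, and between OSKA + 4OHT wells from 5.40% for *Umps* to 44.2% for *Dhodh*. The genes thus differed in how small a change these wells could show. Among the OSKA + 4OHT wells, replicate 3 was the lowest for 8 of the 10 genes.

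Summed over the 10 genes, the level was 568, 676 and 673 TPM across the OSKA − 4OHT wells and 507, 499.8 and 502 TPM across the OSKA + 4OHT wells. Every OSKA + 4OHT sum was below every OSKA − 4OHT sum. *Paics* made up 46.3% to 55.8% of the sum in the OSKA − 4OHT wells and 37.6% to 48.6% in the OSKA + 4OHT wells, and without it the sums overlapped, at 251 to 363 and 257 to 314 TPM. The separation of the sums thus rested on *Paics*.

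Around the set, 56 other genes of nucleotide metabolism were listed, of which 51 were tested. Of these 51, 5 were called higher and 1 was called lower, with a median log2 fold change of 0.34, beside 3.52% and 1.97% among all tested genes. The 4 genes of PRPP supply had log2 fold changes from -0.19 to 0.26, with *Prpsap2*, a PRPP synthetase-associated protein, the farthest from 0. Neither these nor the 4 other genes of the AMP and GMP branches, *Impdh1* among them, were called. The CTP synthase *Ctps2* had 53.8, 101 and 78.2 TPM across the OSKA − 4OHT wells and 45.2, 47.2 and 21.1 TPM across the OSKA + 4OHT wells, and was not called (log2 fold change -1.07, adjusted p = 0.175 by limma-trend).

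Of 7 genes of deoxynucleotide and thymidylate synthesis, 1 was called, *Rrm2*, the S phase subunit of ribonucleotide reductase. It rose from 103 ± 20.8 to 207 ± 18.5 TPM (SD, n = 3 each), or by 1.03 on the log2 scale (standard error 0.184, adjusted p = 0.0320 by limma-trend). The other 6 had log2 fold changes from -0.15 to 0.91 and were not called. Of 10 salvage genes, 1 was called, the thymidine kinase *Tk1*, which had 30.2 ± 7.13 TPM without and 73.2 ± 17.2 TPM with 4OHT (SD, n = 3 each) and rose by 1.26 on the log2 scale (adjusted p = 0.0457 by limma-trend). *Rrm2* and *Tk1* are known to be made as cells enter S phase. The other 9 salvage genes were not called, and 3 of them were below 0 (*Adk* at -0.97 on the log2 scale). Of 19 genes of nucleotide breakdown, 14 were tested and 3 called. *Ampd3*, an AMP deaminase, rose from 2.67 ± 0.278 to 9.48 ± 0.335 TPM and *Nt5e*, the cell surface ectonucleotidase CD73, from 16.5 ± 1.25 to 45.2 ± 6.77 TPM (SD, n = 3 each), with differences on the log2 scale of 1.66 and 1.42 (adjusted p = 0.0143 and 0.0113 by limma-trend). *Upp1*, a uridine phosphorylase, fell from 325 ± 41.0 to 195 ± 11.9 TPM (SD, n = 3 each), or by 0.73 on the log2 scale (adjusted p = 0.0320 by limma-trend). The cytidine deaminase gene *Cda* was listed at 0, 0.793 and 0 TPM across the OSKA − 4OHT wells and at 3.38, 2.88 and 3.87 TPM across the OSKA + 4OHT wells (adjusted p = 0.0672 by limma-trend, not called). None of the 5 genes that supply formyl-tetrahydrofolate, the carbon donor of the *Gart* and *Atic* reactions, was called, and *Shmt1* was the farthest from 0 (log2 fold change -0.92, adjusted p = 0.167 by limma-trend). *Tk1* was not called in any of the 6 fits that omitted a well (adjusted p = 0.0611 to 0.148 by limma-trend). The adjusted p-values of *Rrm2* (0.0491 to 0.121), *Upp1* (0.0492 to 0.119), *Ampd3* (0.0379 to 0.0779) and *Nt5e* (0.0311 to 0.0574) stayed under 0.05 in 1, 1, 3 and 4 of the 6 fits, and all 4 were above 0.05 without OSKA + 4OHT replicate 1 or 2.

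**Figure D3:**
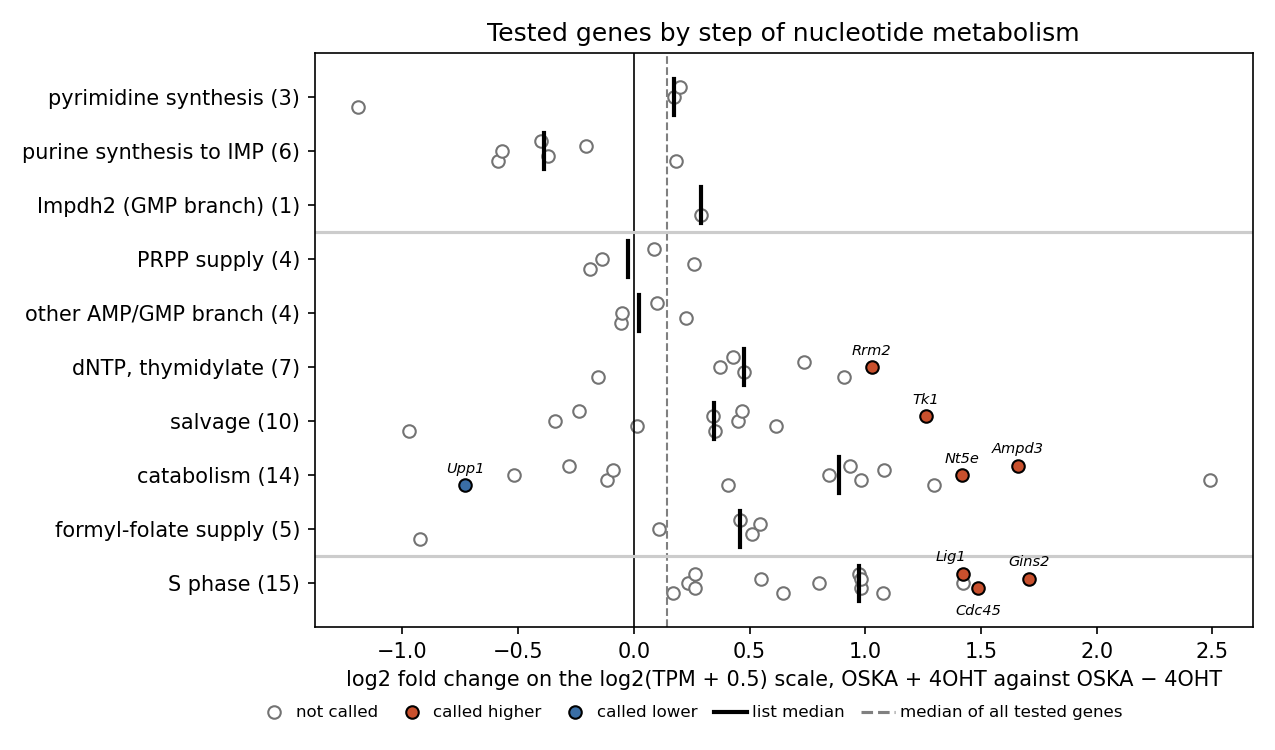
Log2 fold change of each tested gene (points), by step of nucleotide metabolism (CTP synthases and kinases are not drawn), with the number of tested genes in parentheses, the list median as a bar and the median of all tested genes as a dashed line. Filled points passed an adjusted p-value under 0.05 in limma-trend. None of the 10 enzyme genes in the top rows is filled, while *Rrm2*, *Tk1*, *Nt5e* and *Ampd3* are filled to the right and *Upp1* to the left.

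The 15 genes of DNA replication that were listed beside the pathway all had a positive log2 fold change, from 0.17 to 1.71 with a median of 0.97, beside 59.3% of all tested genes above 0. For *Mcm2* the mean level went the other way (36.5 ± 37.0 to 31.8 ± 2.02 TPM, SD, n = 3 each), with 1 OSKA − 4OHT well at 79.2 TPM. Of the 15, 3 were called higher, beside 3.52% of all tested genes, namely *Gins2* (5.42 ± 2.00 to 18.2 ± 2.33 TPM), *Cdc45* (4.08 ± 0.803 to 12.2 ± 1.54 TPM) and *Lig1* (17.9 ± 6.26 to 47.1 ± 2.98 TPM; SD, n = 3 each), with adjusted p-values of 0.0288, 0.0241 and 0.0381 by limma-trend. With 1 well left out, *Cdc45* was above 0.05 in all 6 fits (0.0569 to 0.0963), while *Gins2* (0.0385 to 0.114) and *Lig1* (0.0400 to 0.137) stayed under 0.05 only without OSKA − 4OHT replicate 2. Whether the enzyme genes and the replication genes differed in their response was not tested.

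Of 4 known regulators, *Myc* fell and *Mycn* rose. *Myc* had 41.2, 36.7 and 41.5 TPM across the OSKA − 4OHT wells and 17.8, 19.3 and 18.4 TPM across the OSKA + 4OHT wells, and fell by 1.08 on the log2 scale (standard error 0.149, adjusted p = 0.0144 by limma-trend). *Mycn* had 1.23, 0.551 and 0.688 TPM across the OSKA − 4OHT wells and 4.51, 4.73 and 5.51 TPM across the OSKA + 4OHT wells, and so remained far below *Myc* in TPM (adjusted p = 0.0338 by limma-trend). The adjusted p-value of *Mycn* was above 0.05 in all 6 fits that left out 1 well (0.0528 to 0.135), and that of *Myc* was between 0.0451 and 0.0699 and under 0.05 in 3 of them. With all wells kept, *Mycn* was under 0.05 in 6 of 9 alternative settings and *Myc* in 9 of 10. Neither was called with the replicate block (adjusted p = 0.128 for *Mycn* and 0.0939 for *Myc* by limma-trend). *Max* and *Atf4* were not called. The part of these regulators in the levels of the enzyme genes was not tested.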

How the data were processed

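The authors prepared stranded polyA libraries, sequenced single-end reads, trimmed them with Trim Galore and quantified them with Salmon against the mouse transcriptome. Versions, annotation release and strand setting are not given in the sources used here. TPM were deposited for each gene and well. The columns with the authors' own comparison (fold change, average level, F statistic and p-value) were not used.

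GENCODE M21 (GRCm38) gave symbols and positions by Ensembl identifier for 54097 of the 54331 genes. log2(TPM + 0.5) was fitted with limma-trend (limma 3.58.1, R 4.3.3) over genes that averaged 1 TPM or more, without a block, and adjusted by Benjamini-Hochberg over all of them. The pipeline was tested on simulated data. Similar transcripts (at least 95% identity over 200 bases) were searched for with BLAST 2.17.0. The enzyme genes and all lists were chosen with earlier results of these data known, so no list was tested as a set. Named beside the enzymes were the called genes of each list, the gene of each list farthest from 0 and *Impdh1*. The values of 1 called gene are left out of the text. Fold changes on this scale understate changes of low genes. Alternatives were other pseudocounts, filters, scalings and variance models, a replicate block and leaving out each well. The sum of *Impdh2* and *Impdh2-ps* was added after the data were seen.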

Additional observations from a re-analysis of the deposited data

How the results depend on the processing

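Over all alternatives, the 10 enzyme genes gave 161 comparisons with the reported fit, of which 154 kept both direction and side of the threshold, 2 brought a call and 5 turned the sign of an uncalled gene. The calls were those of *Paics*, which made 1 gene lower in place of 0 after TMM scaling (log2 fold change -0.72) and after quantile normalization (-0.57). The median of all tested genes was 0.14 as reported, 0.023 with the former and -0.0047 with the latter, and relative to it the enzyme genes lay at -0.43, -0.44 and -0.42. The genes called higher and lower over the whole table were 542 and 303 as reported, 456 and 480 with the former and 428 and 434 with the latter. *Dhodh* was at -0.016 after quantile normalization. In the fits that left out 1 well, *Dhodh* ranged from -0.25 to 0.54, *Adsl* from -1.18 to 0.21, *Pfas* from -0.11 to 0.34 and the median of the enzyme genes from -0.32 to 0.043. *Impdh2* ranged from 0.0027 to 0.52 in them, *Atic* from -0.35 to -0.073, *Gart* from -0.64 to -0.28 and *Umps* from 0.12 to 0.25. The other nucleotide genes called higher and lower, 5 and 1 as reported, were 0 to 3 and 0 to 1 in these fits, 0 and 0 with the replicate block, and 3 and 0 without a trend. Over the whole table, these fits called 112 to 318 genes higher and 63 to 147 lower, and the replicate block 31 and 16. Whether the replicate numbers pair the wells is not stated in the sources used here. Deviations of same-numbered wells correlated at 0.024, 0.034 and 0.084 across genes, and those of other pairs at -0.062 to 0.033. OSKA + 4OHT replicate 1 correlated best with another number (0.033). Correlations this weak, from 3 wells per group, cannot decide on a pairing. Where no cause is named above, the cause was not tested. TPM keep no depth, so counting error could not be separated from the spread between wells.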

Other observations

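In several listed genes besides *Adsl* a single well stood above the others of its group. The following examples were chosen after their values were seen. The helicase gene *Mcm2* had 79.2, 14.3 and 15.9 TPM across the OSKA − 4OHT wells, in replicate order, and 29.7 to 33.7 TPM in the OSKA + 4OHT wells. *Max*, the partner of MYC, had 56.7, 73.6 and 255.6 TPM across the OSKA + 4OHT wells, in replicate order, and 57.3 to 82.3 TPM in the OSKA − 4OHT wells. *Krt18*, a keratin of simple epithelia, had 0.697, 2.12 and 17.7 TPM across the OSKA − 4OHT wells, in replicate order, and *Xdh*, the xanthine dehydrogenase, 1.08, 0.958 and 3.98 TPM. Which libraries such wells fall in over all genes was not tested.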
